A study of Mus musculus with 2 samples.

Results

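The regions described here are the LSD1 peaks on mouse sequence that the mm9 assembly holds but does not place on an autosome. LSD1 (KDM1A) is a demethylase of histone H3. Members were all peaks of the authors' list whose sequence name contains "_random", with those of X and Y left out. They numbered 269 of 11797 peaks, or 2.28% of the list, and covered 254894 bp, or 3.81% of all covered bases. Both libraries came from differentiating C2C12 myoblasts, a mouse muscle precursor line. The medium held 25 mM glucose throughout. Its 10% fetal bovine serum was replaced by 2% horse serum for 48 h to start muscle differentiation, and chromatin was crosslinked with formaldehyde and disuccinimidyl glutarate, which also links proteins to each other. One library (n = 1) was precipitated with a polyclonal anti-LSD1 antibody, the other (n = 1) was input with no antibody, and the labels name no genetic change or drug in either. A peak list holds no expression values, so the cell type was not checked against markers.

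LSD1 works in complexes with partner proteins such as CoREST and is known as a repressor and, at some genes, as an activator of transcription. In muscle precursor cells it is known to act on genes of the myogenic programme. A "_random" sequence of mm9 is made of contigs joined end to end, with runs of unknown bases between them, in an order that need not be that of the chromosome. chrUn_random is the pool of contigs that could be tied to no chromosome. The others, such as chr8_random, hold contigs tied to a chromosome but to no position on it. Such contigs are often rich in repeats and in copies of sequence found elsewhere, where short reads are hard to assign to 1 place. The distance between peaks on different contigs is therefore not a distance in the genome. The list gives no read counts, so the depth behind a peak is unknown, and how reads matching several places were treated is not given in the sources used here.

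LSD1 peaks on unplaced sequence lay on 7 sequences. The pool held 185 of them (68.8%), and 84 lay on sequence assigned to a chromosome: 35 on chr1_random, 34 on chr8_random, 12 on chr4_random and 1 each on chr7_random, chr9_random and chr17_random. The covered bases were divided differently. The pool accounted for 120188 bp and the assigned sequence for 134706 bp, of which 95697 bp lay on chr8_random alone, 37.5% of the bases covered by all members. The median length over the 269 peaks was 539 bp (95% interval 466 to 599 bp), against 442 bp (438 to 447 bp) for the 10806 peaks placed on the 19 autosomes. The median score was 97.95 (90.75 to 111.85), against 78.46 (77.5 to 79.21). The score is the peak caller's own value, and its scale is not stated. Scores are compared only within the list, and differences between median scores are read for their sign, not for their size. The length difference of 97 bp rested in part on single sequences: it was 33 bp without chr8_random and 43 bp without chr1_random. It was 306 bp when each run of peaks with starts at most 10 kb apart was counted once, as its highest peak. That rule keeps the best of more peaks among members (269 in 68 runs) than on placed autosomes (10806 in 8514). Length and score went together across peaks, so the 306 bp is not an independent check of the difference.

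All peaks share 1 ChIP and 1 input library, and they lie in groups. No test was therefore made over peaks, and there is no replicate error. Intervals of medians are exact order-statistic intervals and those of shares are exact (Clopper-Pearson) binomial intervals. Both cover counting error only and treat peaks as independent, so they are too narrow for peaks that lie together.

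LSD1 peaks in the pool lay in short, well separated islands. The sequence between the first and the last peak was 5.86 Mb long, and the peaks covered 2.05% of it. After 6 peaks between 37713 and 187861, no peak was called over 2.46 Mb, and the other 179 peaks lay between 2646438 and 5897200. Between 2 consecutive peaks of the pool the stretch without a peak was either at most 22.0 kb or at least 50.2 kb. None of the 184 stretches was between 22 and 50 kb, and 28 were 50 kb or longer, 9 of them between 50.2 and 57.5 kb. On the placed autosomes 1244 of 10787 stretches (11.5%) were between 22 and 50 kb. The range of 22 to 50 kb was chosen after the values were seen. Whether the stretches of 50 kb or more are joins between contigs was not tested, since the positions of gaps in mm9 were not used here.

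Cut at those 28 stretches, the pool consisted of 29 islands with 1 to 17 peaks each (median 5). The islands together spanned 547 kb, the longest 51.0 kb, and within them peaks covered 22.0% of the sequence at 3.38 peaks per 10 kb. Of the 29 islands, 15 held 5 or more peaks and 152 of the 185 peaks in all, and only 2 held a single peak. The scores differed between islands. Among those with 5 or more peaks the median score ran from 64.4, at 2964290 to 2992572, to 308.29, at 5872637 to 5897200. A peak scoring 300 or more was present in 14 of the 29 islands, so the high scores were not held by 1 place.

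**Figure D1:**
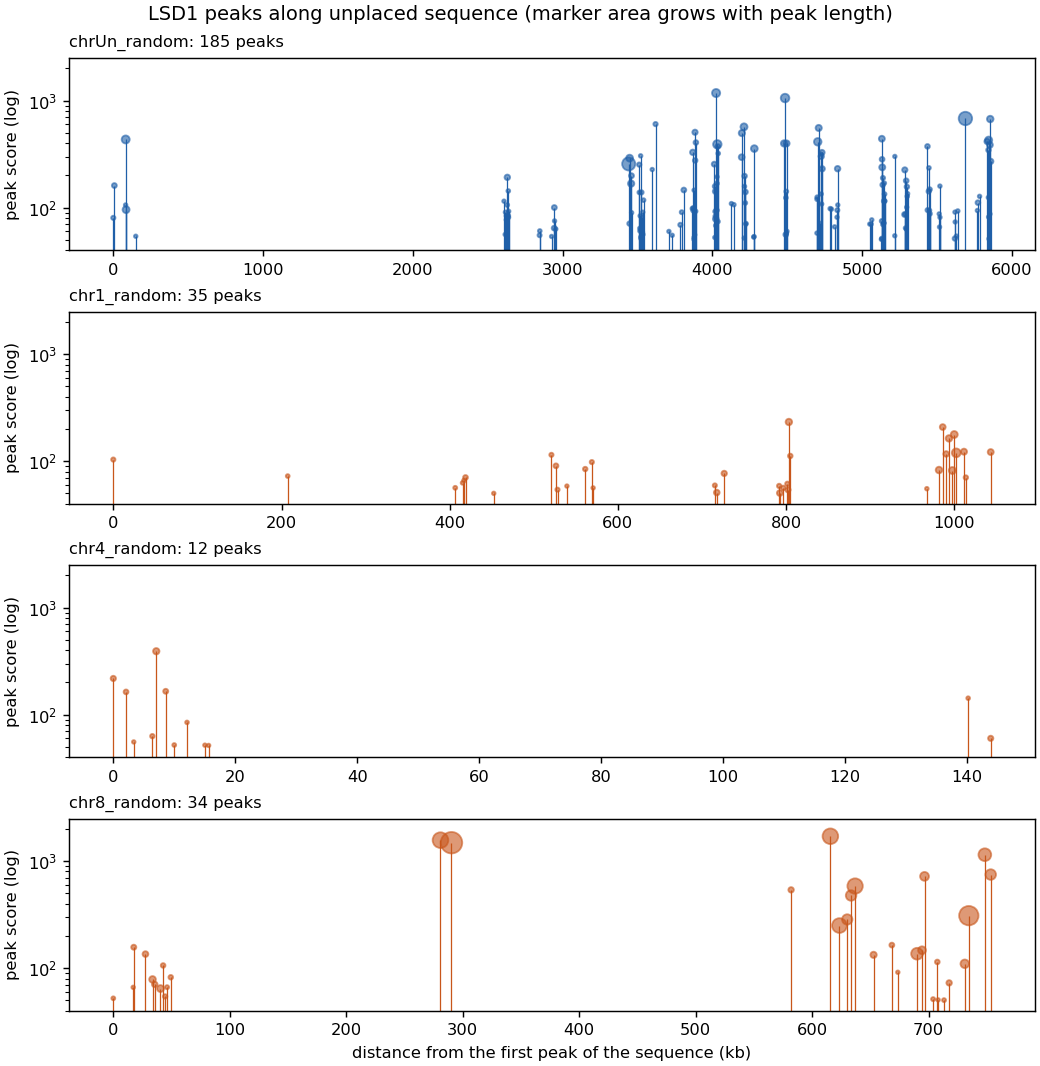
LSD1 peaks along 4 unplaced sequences, plotted by the distance of each peak's start from the first peak (kb) and by its score on a log axis. Marker area grows with peak length, blue is the pool and orange is sequence assigned to a chromosome. The 185 peaks of the pool stand in narrow columns, and the largest markers are on chr8_random.

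Within the pool, the island with most peaks held 17 of them, between 4050497 and 4077280. They covered 45.9% of its 26.8 kb. Their scores ran from 52.65 to 1178.3 with a median of 142.04, so peaks close to the lowest score of the list (50.01) stood beside the highest of the pool. That peak lay at 4062595 to 4064642, was 2048 bp long and ranked number 17 among the 11797 peaks of the list. The next in its island scored 390.91. The second highest of the pool, 1058.05, lay at 4523149 to 4525420, was 2272 bp long and shared an island of 8 peaks with scores down to 56.

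The next highest peaks of the pool differed in their surroundings. The peak at 5727358 to 5732916 scored 681.39, was the longest of the pool at 5559 bp and had no other peak within 50 kb. The peak at 5893092 to 5894419 scored 673.35, was 1328 bp long and lay in an island of 10 peaks, 5 of which scored 300 or more. A further 2 islands held 15 peaks each, at 3549360 to 3578700 and at 5166235 to 5188831. In the first of these the peaks were short, with none above 599 bp, and covered 21.3% of 29.3 kb. In the other they covered 36.1% of 22.6 kb and reached a score of 440.74.

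Peaks of the pool had a median length near that of placed autosomal peaks but scored higher. The median length was 448 bp (415 to 489 bp) against 442 bp, a difference of 6 bp. The median score was 99.85 (92.55 to 117.57) against 78.46. Of the 185 peaks, 78 (42.2%, interval 35.0 to 49.6%) scored at or above 119.41, the upper quartile of the list, while the background on placed autosomes was 25.2%. At the top of the range, 30 peaks (16.2%) scored 300 or more, against 405 (3.75%) of the placed autosomal peaks. At the low end, 14.6% of the pool and 24.9% of placed autosomal peaks scored under 60. By length the difference lay in the tail. There were 23 peaks of 1 kb or longer (12.4%, interval 8.05 to 18.1%; background on placed autosomes 5.65%) and 5 of 2 kb or longer (2.70%; background 0.898%).

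**Figure D2:**
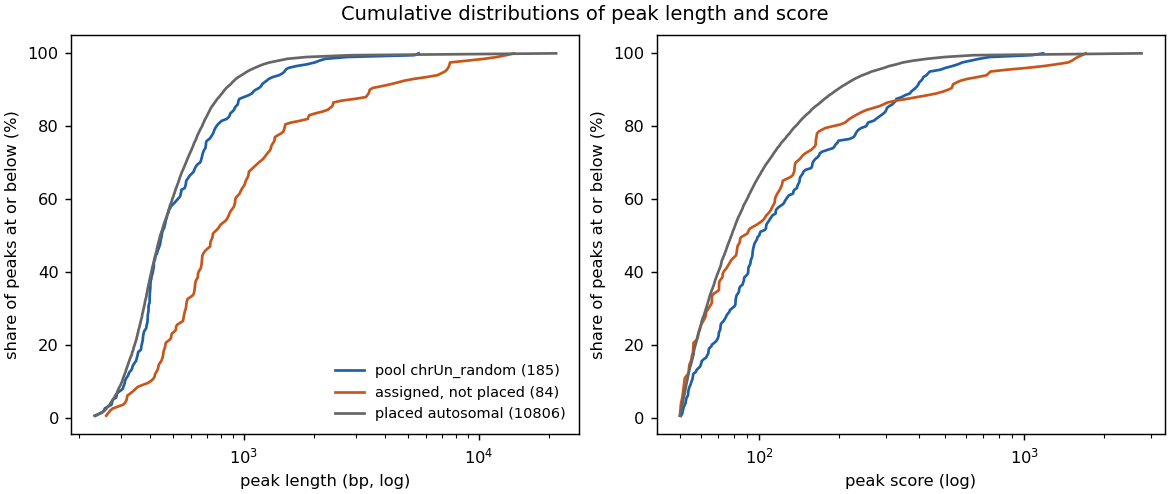
Share of peaks (%) at or below a given length (left, bp) and score (right), both on log axes, for the pool, for sequence assigned to a chromosome and for placed autosomes. The pool's length curve comes close to the autosomal one near its median of 448 bp and lies to the right of it at both quartiles. Its score curve lies to the right of the autosomal one. The assigned sequence is shifted in length, with a median of 739 bp.

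Among unplaced sequences with more than 1 LSD1 peak, chr8_random had the highest median length. It was 1118 bp (685 to 3313 bp), with lower and upper quartiles of 660 and 3442 bp, and the median score was 134.17 (78.47 to 284.99). At least 1 kb was reached by 18 of the 34 peaks and at least 2 kb by 13, and these 13 held 82.3% of the bases covered on the sequence. On placed chromosome 8 the medians were 438 bp and 74.3, and 13 of those 833 peaks were 2 kb or longer. With 34 and 833 peaks, the 2 sets thus had an equal number of peaks of this length.

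The peaks of chr8_random fell into 3 islands that were unlike each other. The first, at 92649 to 142639, held 11 peaks of 275 to 1473 bp (median 668 bp), with scores from 52.25 to 156.81. The second held only 2 peaks, which covered 92.0% of its 23.6 kb. They lay at 373557 to 381120 (7564 bp, score 1570.33) and at 383010 to 397172 (14163 bp, score 1486.7), the longest of all members and number 6 by length in the list. The last island, at 674592 to 849416, held 21 peaks, with a median of 2263 bp each, over 175 kb, of which they covered 37.3%.

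In that last island several long LSD1 peaks nearly touched. From 708307 to 736806, 5 peaks of 3313 to 7481 bp covered 98.8% of 28.5 kb. The first of them scored 1707.35, the highest of all members, while the other 4 scored between 250.01 and 584.84 and were parted from each other by only 1 to 32 bp. At the end of the sequence, peaks of 4999 and 3451 bp with scores of 1147.73 and 748.88 were 42 bp apart and ended at 849416. The longest of the 4, 7270 bp at 729537 to 736806, was the one that scored 584.84. A 2414 bp peak at 789137 to 791550 scored 720.36. A peak of 11537 bp at 827162 to 838698 scored only 309.36, so length and score did not always go together. Between these stood short peaks, such as one of 339 bp, and scores went down to 50.23.

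LSD1 peaks on chr1_random were long, while their scores were near those of placed chromosome 1. The median length of the 35 peaks was 663 bp (569 to 979 bp), against 433 bp on placed chromosome 1. Their median score was 72.56 (59.32 to 98.03), an interval that holds the placed value of 78.86. Of the 35, 11 were 1 kb or longer (31.4%, against 4.47% of the placed peaks). Those scoring under 60 numbered 12 (34.3%, interval 19.1 to 52.2%, against 25.1% of the placed peaks). None reached 300, as 2.70% of the placed peaks did. The widest, at 1077824 to 1080213, measured 2390 bp and scored 119.59. It stood in a chain of 9 peaks over 32.5 kb, where 7 were 1 kb or longer and scores ran from 70.35 to 208.28. A chain is a run of peaks in which each start is at most 10 kb after the one before. The highest score, 232.32, belonged to a 1299 bp peak at 878828 to 880126, in a chain of 7 of which 4 scored under 60.

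On chr4_random 10 of the 12 LSD1 peaks lay within 16.0 kb at the start of the sequence, at 2731 to 18683, and covered 38.4% of it. Their scores ran from 51.55 to 391.33. The top one, 1253 bp long at 9774 to 11026, followed a 624 bp peak of score 62.93 after a gap of 17 bp. The other 2 lay 124 kb further on. Over the 12 peaks the median length was 543.5 bp (397 to 863 bp) and the median score 73.79 (52.03 to 165.29), against 470 bp and 81.57 for placed peaks of chromosome 4.

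The remaining 3 sequences held 1 LSD1 peak each. That on chr9_random, at 241836 to 243708, was 1873 bp long and scored 531.8, number 119 in the list. That on chr7_random, at 348337 to 348913, was 577 bp long and scored 135.9. That on chr17_random, at 173928 to 174381, was 454 bp long and scored 75.04, slightly below the median score of the list, 78.25.

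Peaks of the pool had a lower median length than those on assigned sequence, while the sign of the difference in score was not stable. Median lengths were 448 and 739 bp (639 to 961 bp), a difference of -291 bp for the pool minus the assigned sequence. Bounds taken from the medians' intervals were -546 to -150 bp. Without chr8_random the assigned median was 639.5 bp and the difference -191.5 bp. With each chain counted once the difference was -132.5 bp, with bounds of -778 to 309 bp, and with peaks merged across gaps of 1 kb or less it was -162 bp, with bounds of -479 to 471 bp. Both of these bounds include 0, while the differences themselves stayed negative. Such bounds pair opposite ends of the medians' intervals and are not an interval of the difference. They therefore cannot decide whether the difference held beyond counting error once close peaks were counted together. Peaks of 1 kb or longer made up 12.4% of the pool and 36.9% (26.6 to 48.1%) of assigned peaks, or 26.0% (14.6 to 40.3%) without chr8_random. The median scores were 99.85 and 87.55 (72.56 to 116.75), with overlapping intervals. The sign of this difference in score depended on the sequences and peaks kept: for the pool minus the assigned sequence it was 12.3 with all of them, 23.93 without chr8_random, -33.23 without chr1_random and -2.93 among peaks at or above the list's median score.

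Within classes cut by score, median lengths in the pool were near those of placed autosomal peaks, and those on assigned sequence were higher. The list was divided at the quartiles of its scores, 59.97, 78.25 and 119.41. In the lowest class the pool had a median of 361 bp (324 to 401 bp), the assigned sequence one of 491 bp (354 to 613 bp) and the placed autosomes one of 337 bp. In the second class it was 390, 624 and 390 bp, and in the third 427, 666.5 and 468 bp. In the top class it was 706.5 bp in the pool (616 to 876 bp), 1404 bp on assigned sequence (1047 to 3416 bp) and 670 bp on placed autosomes. Scores in the top class ran up to 3100 and were not alike between groups. Their medians were 236.84 in the pool, 213.08 on assigned sequence (164.23 without chr8_random, 393.37 on chr8_random) and 175.38 on placed autosomes. Lengths in this class are therefore not matched for score. The assigned medians also lay above the other 2 groups without chr8_random. Those medians were 477, 622.5, 652 and 1127 bp, and those of chr1_random by itself were 554, 621, 665 and 1299 bp, over 12, 7, 9 and 7 peaks. Of the 50 assigned peaks outside chr8_random, 35 were on chr1_random. The 12 peaks of chr4_random did not share the order in every class: their medians were 358.5 bp in the lowest class (4 peaks) and 432 bp in the third (1 peak), below the pool in the first case and below the placed autosomes in the other. Peak caller length and score come from the same reads, and across the peaks of a group they went together, with a Spearman's rho of 0.69 in the pool (n = 185), 0.71 on assigned sequence (n = 84) and 0.69 on placed autosomes (n = 10806).

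**Figure D3:**
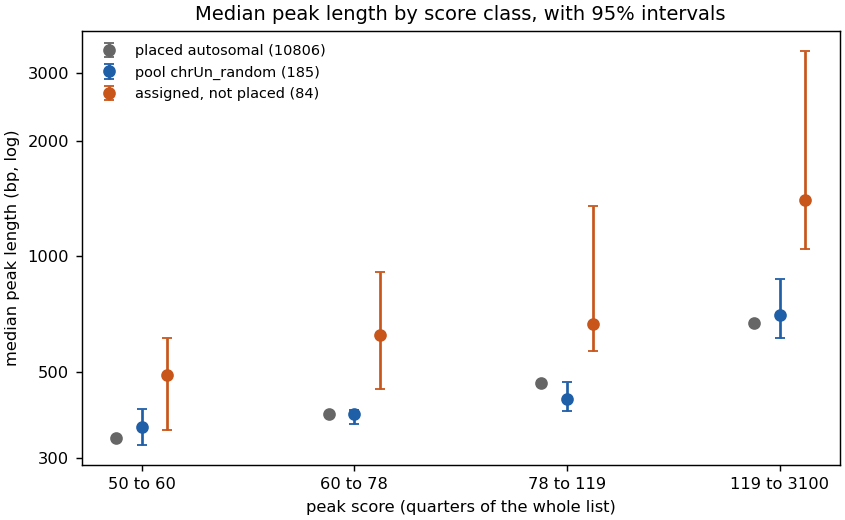
Median peak length (bp, log axis) in 4 classes of peak score cut at the quartiles of the whole list. Bars are 95% order-statistic intervals, which for the 10806 placed autosomal peaks are hidden by the marker. The pool's medians run from 361 to 706.5 bp, close to the autosomal ones, and those on assigned sequence, 491 to 1404 bp, lie above both in every class.

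Nearly all LSD1 peaks on unplaced sequence had a close neighbour. A neighbouring start within 10 kb was present for 245 of the 269 members (91.1%, interval 87.0 to 94.2%), and the background on placed autosomes was 32.7%. The share was 93.5% in the pool and 85.7% on assigned sequence. Within 1 kb the pool and the assigned sequence differed more, with 73 of 185 peaks (39.5%, interval 32.4 to 46.9%) and 12 of 84 (14.3%, interval 7.61 to 23.6%), against 7.78% on placed autosomes. The median distance between consecutive starts was 2391 bp in the pool and 4323 bp on assigned sequence.

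In terms of chains, 7 runs of 10 or more peaks held 92 of the 185 peaks of the pool (49.7%). Assigned sequence had 1 such chain, with 10 of its 84 peaks (11.9%), and most of its peaks (59.5%) lay in chains of 3 to 9. On placed autosomes 33 chains of this size held 4.92% of peaks, and 67.3% of peaks were in no chain. Within chains of 10 or more, the pool and the placed autosomes had a like spacing, with medians of 1660 and 1725 bp between starts, but the pool's peaks were shorter, with a median of 443.5 bp against 673 bp. The median scores of these peaks were 98.99 and 97.2. In chains of 3 to 9 the spacings were less alike, with medians of 1593 bp in the pool and 2695 bp on placed autosomes. The lengths there were 468 and 493 bp. Over chains of all sizes the median spacings were 1660 and 2520.5 bp.

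**Figure D4:**
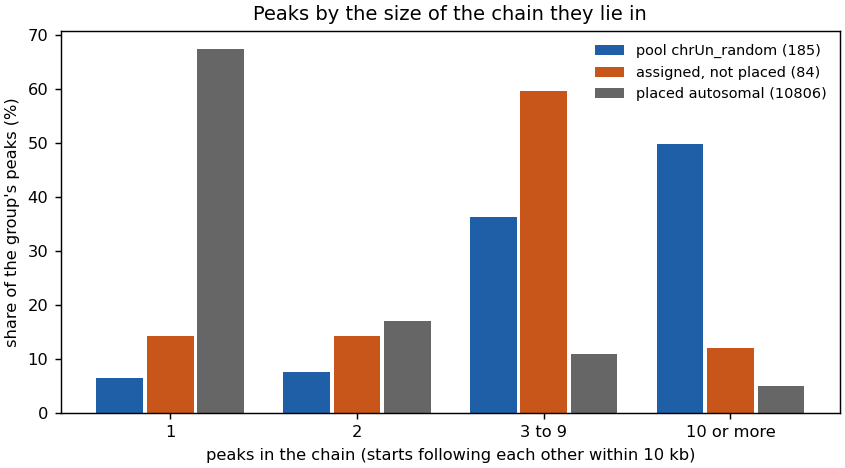
Share of each group's peaks (%) by the number of peaks in the chain they lie in, where a chain is a run of starts at most 10 kb apart. Of the pool's peaks 49.7% lie in chains of 10 or more, of assigned peaks 59.5% in chains of 3 to 9, and of placed autosomal peaks 67.3% stand alone.

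Over all consecutive peaks, a gap of at most 100 bp parted 18 of 262 pairs of members (6.87%, interval 4.12 to 10.6%) and 218 of 10787 pairs on placed autosomes (2.02%, interval 1.76 to 2.30%). Among close neighbours the shares lay nearer to each other. Such a gap parted 18 of 201 consecutive members of a chain (8.96%, interval 5.39 to 13.8%) and 216 of 2292 such pairs on placed autosomes (9.42%, interval 8.26 to 10.7%). In the pool the share was 6.90% and on assigned sequence 14.3%, where 6 of the 8 pairs were on chr8_random. In chains of the dense autosomal groups described next it was 16.3% (interval 13.6 to 19.3%). The longest near-continuous stretch of the pool joined 3 peaks of 5314, 637 and 1469 bp at 3479152 to 3486598, with gaps of 5 to 22 bp.

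Among placed peaks, dense groups offer the closest counterpart, defined here as 20 or more peaks with steps of at most 50 kb from start to start. For the 843 autosomal peaks in such groups the median length was 596 bp (563 to 634 bp) and the median score 88.54 (84.36 to 93.08), and 92.3% had a neighbouring start within 10 kb. This share follows in part from the rule, which picks peaks by their spacing. A neighbouring start within 1 kb was present for 31.9% of the dense peaks (interval 28.8 to 35.2%), against 39.5% in the pool and 14.3% on assigned sequence. The median distance between starts was 2535 bp in the dense groups, against 2391 and 4323 bp. Close packing was thus not particular to unplaced sequence. The pool had a like share of neighbours within 10 kb (93.5%), but a shorter median length (448 bp) and fewer peaks of 1 kb or longer (12.4% against 23.4%). Its median score was higher (99.85), and its interval of 92.55 to 117.57 overlaps that of the dense groups only at its lower end. High scores were more frequent in the pool. A score of 300 or more was reached by 16.2% (interval 11.2 to 22.3%), against 6.41% (4.85 to 8.28%) in the dense groups. The upper quartile of the list was reached by 42.2% (35.0 to 49.6%), against 32.6% (29.5 to 35.9%). The assigned sequence was longer than the dense groups in the median (739 bp) and had a like median score (87.55). It was not free of such groups, since the last island of chr8_random, with 21 peaks, meets the same rule. Without chr8_random the median length on assigned sequence was 639.5 bp, with an interval of 561 to 845 bp that holds the dense groups' value. The median score was then 75.92, below that of the dense groups and below the 78.46 of all placed autosomal peaks. Its interval of 61.4 to 103.49 holds both values.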

How the data were processed

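ChIP-seq of LSD1 was compared with input in differentiating C2C12 cells (1 library each). Per the submitters' processing notes, reads were aligned with BWA to mm9; per the file headers, peaks were called with MACS in Galaxy. Versions, MACS settings and the treatment of duplicate reads were not given in the sources used here. Each peak comes with its position and the authors' peak caller score, as deposited. No reads or depth were used, so intervals cover the number of peaks only.

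Members were selected by sequence name. Positions are 1-based. Distances were measured between starts, and gaps from end to start. Peaks named are the highest-scoring and widest of each sequence, the 10 highest and 5 widest overall and the 3 chains with most peaks; the other peaks and islands named were chosen after their values were seen. Members and rules were chosen with earlier results of these data known. Genes, motifs and base sequence were not analysed here, because no mm9 genome was used. Scripts were tested on simulated data. Tools were matplotlib 3.10.9, pandas 2.3.3, scipy 1.17.1, numpy 2.4.6 and Python 3.11.15. Alternatives were other score, joining, distance and counting rules, sequences left out or added, and other placed peaks.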

Additional observations from a re-analysis of the deposited data

How the results depend on the processing

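Of 61 values under other settings, 33 stayed within the 95% interval of the main value, 26 moved beyond it and 2 changed sign. For differences, bounds taken from the medians' intervals were used, and for the number of peaks 1.5 times the value. Some moves followed from the rule alone. A score cut raises the median score, counting chains once lowers the number of peaks, and another distance changes the share with a neighbour. The tally alone therefore does not measure how stable the results were. The score of the pool minus that of assigned sequence changed sign among peaks at or above the list's median score (-2.93) and without chr1_random (-33.23, added after seeing the data). Keeping only peaks at or above the median score left 178 members, with a median length of 665.5 bp, a median score of 141.98, 28.7% of 1 kb or longer and -640.5 bp for pool minus assigned length. Counting each chain once, as its highest peak, left 68, with 747 bp, 160.05, 33.8% of 1 kb and 11.8% of 2 kb or longer. Pool minus assigned was then -132.5 bp and 76.55 in score, and members minus placed autosomal peaks 306 bp and 79.8 in score. Merging neighbours with gaps of 1 kb or less, with the highest score kept, gave 863 bp and a score of 114.24. The shares of 1 kb and of 2 kb or longer were 42.3% and 18.9%, and 79.4% had a neighbour within 10 kb. Differences from placed autosomal peaks were 414 bp and 35.36. Counting chains once and merging both act more on members, where 31.6% had a neighbour within 1 kb, against 7.78% on placed autosomes. The larger differences under these 2 rules are therefore not independent checks. Without chr8_random, 15.3% were 1 kb or longer and 2.55% 2 kb or longer, and members exceeded placed autosomal peaks by 33 bp in place of 97 bp. The share with a neighbour was 31.6% within 1 kb, 97.4% within 50 kb and 84.9% with X and Y sequence added. Setting members against placed autosomal peaks outside dense groups, or all placed peaks, moved neither difference beyond its bounds. These sets hold 9963 or all of the 10806 placed autosomal peaks, so little movement was possible and they are weak checks. No paired analysis was possible because there was only 1 ChIP and 1 input library, which also left no replicate to omit. Weaker sites below the unknown depth cannot be counted.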

Other observations

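LSD1 peaks on the unplaced sequence of the sex chromosomes, which were left out above, differed from each other. On chrX_random 14 peaks had a median length of 828.5 bp (427 to 1395 bp), and 13 of them had a neighbouring start within 10 kb. On chrY_random 21 peaks had a median length of 309 bp (279 to 363 bp), none had a neighbour within 10 kb or 50 kb, and 12 scored under 60. The largest score there was 131.4, against 514.54 on chrX_random. These values were described only, with no test.

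Peaks of 390 to 410 bp, a range chosen after the lengths were seen, made up 25 of the 185 peaks of the pool (13.5%, exact interval 8.94 to 19.3%). They made up 6.60% of placed autosomal peaks and 1 of the 84 peaks on assigned sequence. Evenly spaced peaks were rare. In the pool, 1 of 117 pairs of consecutive spacings within a chain was equal to within 20 bp (0.855%), against 12 of 1050 (1.14%) on placed autosomes. That case was a run of 3 peaks starting at 3571133, 3572793 and 3574456, with spacings of 1660 and 1663 bp, lengths of 355, 355 and 303 bp and scores of 58.89, 90.78 and 56.16. None of 40 such pairs on assigned sequence was equal.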
